A study of Mus musculus with 8 samples.

Results

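The uroplakin genes Upk1a, Upk1b, Upk2, Upk3a and Upk3b and the surface antigen gene Psca were followed in the kidneys of 8 mice. They were chosen by name, and all 6 were found, each as 1 row, among the 35275 genes of the deposited table. The choice was made with their values in KO and WT mice already known, so the comparison of the 2 groups in these genes is given below as a description and not as a test. Other urothelial genes in the same libraries are described further on. Their lists were drawn up with earlier results of these libraries known, so they do not test the label of the 6 genes.

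Uroplakins are membrane proteins of the urothelium, the epithelium that lines the renal pelvis, ureter and bladder. They assemble in pairs of a tetraspanin and a single-span partner into rigid plaques on the surface of the outermost umbrella cells, where they make the lining tight to water and solutes. In the kidney this lining covers the pelvis and the surface of the papilla, so whole kidney RNA holds only a small share of it. Psca, the prostate stem cell antigen, is a small protein of the LY6 family held to the membrane by a lipid anchor and is made by several lining epithelia, the urothelium among them.

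The study asked how loss of CTRP1, a secreted relative of adiponectin encoded by C1qtnf1, changes gene expression in the kidney of mice on a high-fat diet at 40 weeks of age. The 4 KO mice were male Ctrp1-/- animals and the 4 WT mice were male wild-type (+/+) littermates from crosses of heterozygotes, all on a C57BL/6J background and all fed from 6 weeks of age a diet with 60% of its energy from fat. The deletion took out the coding part of exon 4 and some of the 3′UTR in every cell of the body, was made in 129S5/Sv embryonic stem cells and was bred onto C57BL/6J. Each library came from the whole left kidney of 1 mouse, after poly-T selection of mRNA.

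The libraries held 17884140 to 20344859 reads, worked out from the steps of the FPKM values (fragments per kilobase of gene, scaled to the total of the library). C1qtnf1 was at 5.27 to 5.55 FPKM in the WT mice and 0.322 to 0.883 FPKM in the KO mice, so each library matched its label. Markers of the tubule were abundant in all libraries, with 13390 to 25970 FPKM summed over 8 proximal tubule genes and 1040 to 1574 FPKM over 5 genes of the thick ascending limb. KO replicate 2 stood apart, with FPKM adding up to 525275.1 against 437495.7 to 450338.7 in the other libraries and a limma array weight of 0.1. For some of the values below that depend on it, its own level or the value without it stands beside.

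All 6 genes had a higher mean level in KO than in WT kidneys, by 2.33-fold (Upk3b) to 4.83-fold (Psca). Their levels were low in both groups, between 0.48 and 1.92 FPKM on average in WT and between 1.21 and 9.29 FPKM in KO. In RNA of a whole organ, more urothelial cells and more RNA per cell cannot be told apart. For Upk2, Upk3a and Psca the 4 KO values lay above the 4 WT values. For Upk1a, Upk1b and Upk3b the groups overlapped, because KO replicate 2 fell within the WT range.

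Upk1a encodes uroplakin Ia, the tetraspanin that pairs with uroplakin II. It lies on chromosome 7 from 30603092 to 30612847 (mm10, minus strand). Its level was 1.36, 1.16, 0.955 and 0.864 FPKM in WT replicates 1 to 4 and 4.79, 1.12, 2.16 and 3.56 FPKM in KO replicates 1 to 4. KO replicates 1, 3 and 4 were above every WT mouse, and KO replicate 2 lay between WT replicates 2 and 3. The group means were 1.08 ± 0.22 and 2.91 ± 1.6 FPKM (SD, n = 4 each), from 111 reads in WT and 284 in KO. On the log2(FPKM + 1) scale the KO minus WT difference was 0.82 ± 0.31 (SE from the spread of the mice).

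Upk1b encodes uroplakin Ib, the tetraspanin that pairs with the uroplakins III. The gene lies on chromosome 16 from 38773184 to 38800328 (minus strand). It was at 0.585, 0.611, 0.353 and 0.445 FPKM in the 4 WT mice and at 2.37, 0.584, 0.613 and 1.27 FPKM in the 4 KO mice, in the order of their replicates. Only KO replicates 1 and 4 stood clear of WT, and KO replicates 2 and 3 were level with WT replicates 1 and 2. With the scaling factors used for the test, the groups came apart. The means were 0.498 ± 0.121 and 1.21 ± 0.837 FPKM (SD, n = 4 each), and the difference was 0.50 ± 0.25 on the log2 scale. Without KO replicate 1 the ratio of the means fell from 2.43 to 1.65.

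Upk2 encodes uroplakin II, a single-span protein made as a longer precursor that is cut on its way to the surface. It lies on chromosome 9 from 44452715 to 44454976 (minus strand) and had the lowest WT mean. The WT mice were at 0.621, 0.495, 0.298 and 0.507 FPKM and the KO mice at 3.4, 1.37, 1.24 and 0.689 FPKM. The groups did not overlap, but the gap was small, since KO replicate 4 lay just above WT replicate 1. These values rest on 5 to 11 reads per WT mouse and 12 to 53 per KO mouse. The means were 0.48 ± 0.134 and 1.67 ± 1.19 FPKM, a ratio of 3.49 that fell to 2.29 without KO replicate 1.

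Upk3a encodes uroplakin IIIa, the partner of uroplakin Ib in the plaque. It lies on chromosome 15 from 85017141 to 85022547 (plus strand). It was at 0.892, 1.42, 0.423 and 0.711 FPKM in WT and at 3.59, 2.56, 1.82 and 4.66 FPKM in KO. Every KO mouse was above every WT mouse, with WT replicate 2 and KO replicate 3 the nearest to each other. The means were 0.861 ± 0.417 and 3.16 ± 1.24 FPKM (SD, n = 4 each), from 74 and 263 reads, and the log2 difference was 1.15 ± 0.26.

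Upk3b encodes uroplakin IIIb, the second partner of uroplakin Ib, which is also made by mesothelium, the lining of the body cavities. It lies on chromosome 5 from 136038496 to 136046487 (plus strand), 8.01 kb from its relative Upk3bl. It was at 0.883, 1.45, 0.466 and 0.65 FPKM in WT and at 2.88, 1.07, 1.53 and 2.54 FPKM in KO. WT replicate 2 was above KO replicate 2 and just under KO replicate 3, so the groups overlapped. They came apart when either WT replicate 2 or KO replicate 2 was left out. The means were 0.862 ± 0.428 and 2 ± 0.851 FPKM, with a log2 difference of 0.68 ± 0.25. Upk3bl was near the limit of detection, with 0 to 1 reads in each WT mouse and 0 to 5 in each KO mouse.

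Psca had the highest mean of the 6 genes in both groups and also the largest difference. It lies on chromosome 15 from 74714839 to 74717069 (plus strand), 10.3 Mb from Upk3a. It was at 1.95, 4.14, 0.968 and 0.629 FPKM in WT and at 13.2, 5.88, 6.37 and 11.7 FPKM in KO. The KO mice were all above the WT mice, with WT replicate 2 nearest to them. The WT mice were far apart among themselves, with an SD of 82.3% of the mean against 39.9% in KO. The means were 1.92 ± 1.58 and 9.29 ± 3.71 FPKM from 127 and 598 reads, and the log2 difference was 1.91 ± 0.44. Without WT replicate 2 the ratio of the means went from 4.83 to 7.86.

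**Figure D1:**
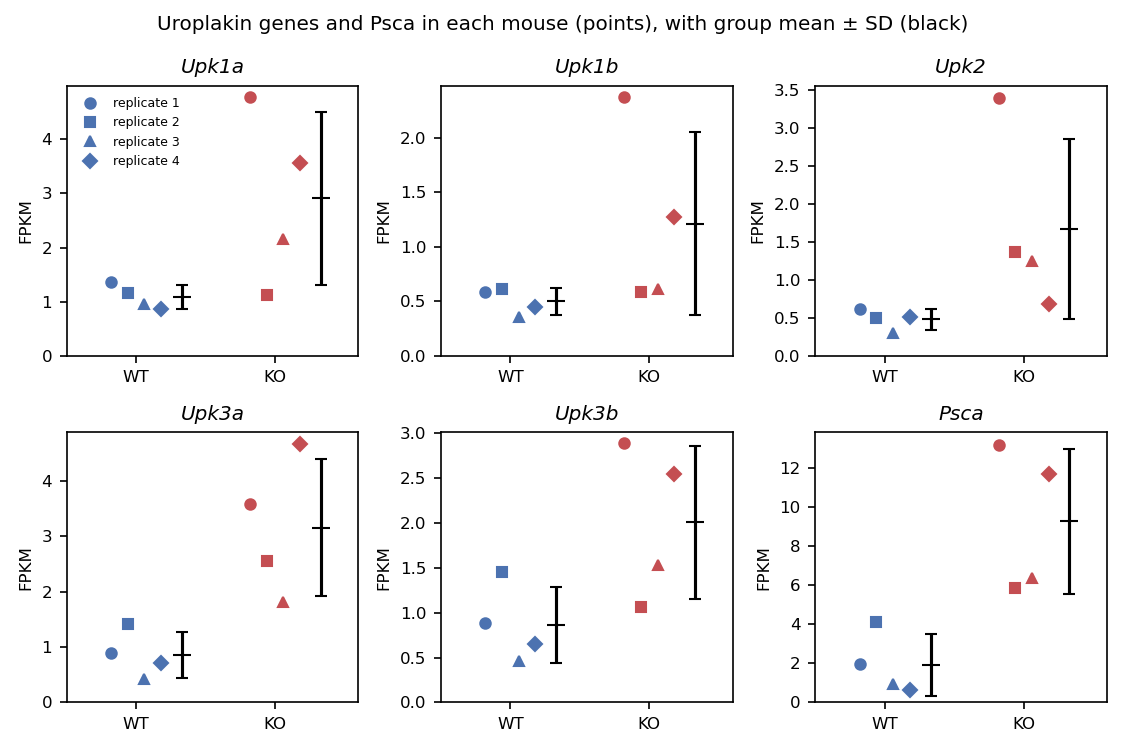
FPKM of each gene (vertical axes, linear and starting at 0) in the 4 WT (blue) and 4 KO (red) mice, with 1 marker shape per replicate number and the group mean ± SD in black; the numbers do not pair mice. KO replicate 1 is the highest mouse in every panel but that of Upk3a, and Upk2, Upk3a and Psca have no KO mouse within the WT range.

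Counting error was worked out from the reads behind these values. From the summed reads, scaled for library totals, the KO to WT ratio was 4.94 for Psca (95% interval 4.07 to 6.03, exact Clopper-Pearson) and 2.35 for Upk3b (1.94 to 2.86). For Upk2, which had the fewest reads, it was 3.4 with an interval from 2.28 to 5.19. These intervals cover counting error only. The reads of the mice of each group were pooled, so the spread between mice is left out. Copies made by PCR were not marked, so the intervals need not cover all of the counting error either.

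In the limma fit over the whole table, 12118 genes with a mean of at least 1 FPKM were tested, and 5 of the 6 genes were among them. Upk1b, at 0.854 FPKM over the 8 mice, was below this minimum, and Upk2, Upk3a and Upk3b passed it through their KO levels, with WT means under 1 FPKM. Of the 5, 0 passed an adjusted p of 0.05, where 5 of all genes were called (0.0413%), 2 higher in KO (0.0165%) and 3 lower (0.0248%). All 5 had an unadjusted p under 0.05, as had 721 of the 12118 genes (422 higher in KO), and limma-voom on recovered reads also called 0 of them. The adjusted p of limma was 0.15 for Psca, 0.16 for Upk3a and 0.63 to 0.64 for Upk1a, Upk2 and Upk3b. Without KO replicate 2 the limma adjusted p was 0.22 for Psca, 0.15 for Upk3a, 0.058 for Upk1a, 0.34 for Upk2 and 0.16 for Upk3b. Since these genes were picked with this contrast known, the values describe them and support nothing.

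In 3 of the 15 alternative fits 1 of these genes passed the threshold, with no second gene passing in the same fit. Psca passed without WT replicate 2 (limma adjusted p = 0.036), Upk3a without KO replicate 3 (0.043) and Upk1a with array weights (0.049). In that order these fits called 7 of all genes (4 higher in KO), 21 (17 higher) and 59 (30 higher), against 5 in the main fit. Over all fits in which they were tested the adjusted p ranged from 0.036 to 0.60 for Psca, from 0.043 to 0.60 for Upk3a and from 0.049 to 0.96 for Upk1a. The log2 differences of the 6 genes were positive in every fit that gave them, without KO replicate 2 as well. Limma-voom gave none for Upk1b.

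As further background, 310 of 13606 genes with a mean of at least 0.5 FPKM had all 4 KO values above all 4 WT values (2.28%), against 3 of these 6. In the same genes, 113 had a KO mean at least 2 times the WT mean (0.831%), against all 6. Of the 13606 genes, 13 had a larger ratio than Psca, 20 than Upk3a and 24 than Upk2. The contrast chose the genes, so nothing is read from these shares.

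Within each group the genes did not all follow the same mice. KO replicate 1 was the highest KO mouse for 5 of 6 genes and KO replicate 4 for the other, Upk3a. KO replicate 2 was the lowest for 4 of 6, but for Upk2 it was the next highest, and KO replicate 4, otherwise near the top, was the lowest for Upk2. Among the WT mice, WT replicate 2 was the highest for 4 of 6 genes and WT replicate 3 the lowest for 4 of 6. The remaining genes had WT replicate 1 on top (Upk1a and Upk2) and WT replicate 4 at the bottom (Upk1a and Psca).

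On the FPKM scale, which allows genes to be compared per length, the order in WT was Psca, Upk1a, Upk3b, Upk3a, Upk1b and Upk2. Psca was above Upk1a in 3 of 4 WT mice, and Upk1a above Upk3b in 3 of 4, so these neighbours did not differ beyond their spread. Upk3b and Upk3a were level, each above the other in 2 of 4 WT mice, as were Upk1b and Upk2. The step from Upk3a to Upk1b was in the same order in 4 of 4 WT mice. In KO the order was Psca, Upk3a, Upk1a, Upk3b, Upk2 and Upk1b. Psca was above Upk3a, and Upk1a above Upk3b, in 4 of 4 KO mice, while Upk3a and Upk1a changed places in 2 of 4, as did Upk3b and Upk2. Upk2 was above Upk1b in 3 of 4 KO mice.

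Ratios between the genes within each mouse show how their balance varied. The ratio of Upk3b to Upk3a was 0.99, 1.02, 1.1 and 0.913 in the WT mice and 0.803, 0.417, 0.841 and 0.545 in the KO mice. It was thus close to 1 in each WT mouse and below the whole WT range in each KO mouse, with means of 1.01 ± 0.0775 and 0.652 ± 0.204 (SD, n = 4 each). Of the 15 ratios between the 6 genes, 2 did not overlap between groups. The second was Upk3b to Psca, at 0.579 ± 0.308 in WT and 0.214 ± 0.0242 in KO. These 2 were picked out after the values were seen, and no test was made, because the ratios come from the contrast that chose the genes. The 15 ratios share genes and are not independent. How often ratios of other gene pairs do not overlap was not worked out, so nothing is read from the count.

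The ratios within the plaque pairs overlapped between groups. Upk1a to Upk2, the pair of uroplakins Ia and II, was 2.36 ± 0.625 in WT and 2.28 ± 1.96 in KO. Its KO values ran from 0.819 in KO replicate 2 to 5.17 in KO replicate 4, on both sides of the WT range of 1.71 to 3.2. Upk3a to Upk1b, the pair of uroplakins IIIa and Ib, was 1.66 ± 0.472 in WT and 3.13 ± 1.22 in KO. Here KO replicates 2, 3 and 4 were above every WT mouse, and KO replicate 1 was at 1.51, level with WT replicate 1 at 1.52.

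**Figure D2:**
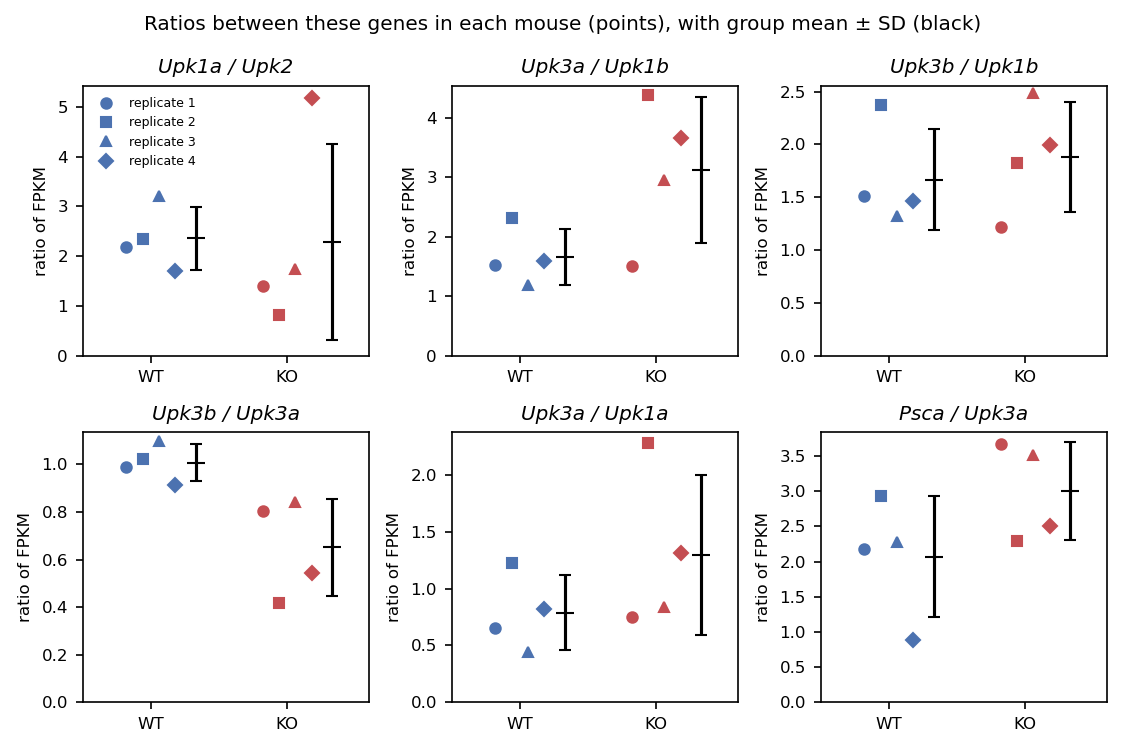
Ratio of FPKM between 2 genes (vertical axes, linear and starting at 0) in each WT (blue) and KO (red) mouse, with 1 marker shape per replicate number and the group mean ± SD in black. Of the 6 ratios drawn, Upk3b to Upk3a is the one whose groups do not overlap, with WT from 0.913 to 1.1 and KO from 0.417 to 0.841.

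Other genes of the urothelium were taken from 4 lists by function, which held 41 genes in the table, 29 of them above the minimum level. By limma 0 of the 29 passed over all genes, 13 had an unadjusted p under 0.05, and 26 had a positive difference. Of all 12118 genes, 721 had an unadjusted p under 0.05. The median log2 difference of the 29 was 0.26, beside -0.01 over all genes tested, of which 47.1% were positive. Limma-voom and the fit with array weights also called 0. Without KO replicate 2 it was 0 of 29 as well, with 22 positive, while without KO replicate 3 the genes Krt5, Krt18, Krt19, Foxq1 and S100a6 passed, all higher in KO, in a fit that called 21 of all genes (17 higher). The lists were drawn up with earlier results of these libraries known and are not independent evidence.

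Keratins and junction genes had 10 of 10 tested members positive, 6 with an unadjusted p under 0.05 and 0 past the threshold, with a median of 0.45 (8 of 10 positive without KO replicate 2). Over all 13 genes of the list, with no minimum level, 12 were positive and the median was 0.32. Krt5, the keratin of the basal layer, was at 1.06, 0.912, 0.594 and 0.18 FPKM in WT and at 3.83, 2.58, 1.06 and 3.5 FPKM in KO. The groups did not overlap, but KO replicate 3 was level with WT replicate 1, and the limma adjusted p was 0.34. Krt5 passed the minimum level through its KO values, with a WT mean of 0.686 FPKM. Krt18, a keratin of simple epithelia that the collecting duct makes as well, was at 8.06 ± 0.592 and 14.9 ± 3.46 FPKM (limma adjusted p = 0.21). Cldn4, a tight junction claudin also found in collecting duct, was at 9.48 ± 0.771 and 14.6 ± 2.86 FPKM with no overlap (limma adjusted p = 0.28), and Krt19 at 1.77 ± 0.727 and 5.09 ± 1.91 FPKM (0.35).

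The keratins that mark single layers were low. Krt20, the keratin of mature umbrella cells, was not tested and had 2 to 7 reads in each WT mouse and 22, 5, 3 and 7 reads in KO replicates 1 to 4. KO replicate 1, which was the highest KO mouse for Upk1a, Upk1b and Upk2, thus also had the most reads of Krt20. Krt14, a basal keratin, was at 0.21 ± 0.147 and 0.706 ± 0.538 FPKM, with KO replicate 2 the highest at 1.38 FPKM, and Krt13 had 3 reads in WT replicate 1 and 0 in the other 7 mice. These 3 were chosen after their values were seen.

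Transcription factors of the urothelium had 5 of 5 tested members positive, 3 of them with an unadjusted p under 0.05, and 0 past the threshold, with a median of 0.31. Gata3, which is also made in the collecting duct, was at 4.45 to 5.04 FPKM in WT and 5.72 to 6.45 FPKM in KO without overlap (limma adjusted p = 0.54). Elf3, an epithelial ETS factor, was at 5.78 ± 0.746 and 8.25 ± 1.12 FPKM, again without overlap (0.49). Klf5 was at 1.28 ± 0.339 and 2.08 ± 0.778 FPKM (limma adjusted p = 0.75), and Ehf at 3.55 ± 0.397 and 4.09 ± 0.849 FPKM (0.86).

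Of the factors below the minimum level, Foxa1 and Grhl3 act in urothelial differentiation, and both were singled out after their values were seen. Foxa1 was at 0.217, 0.288, 0.0816 and 0.0771 FPKM in WT and at 0.93, 0.392, 0.391 and 0.754 FPKM in KO. Grhl3 was at 0.0547 ± 0.0138 and 0.262 ± 0.122 FPKM, with 2 to 4 reads in each WT mouse and 9 to 22 in each KO mouse. In both genes every KO mouse was above every WT mouse, and neither passed when all genes above 0 were tested (limma adjusted p = 0.59 and 0.55). Pparg, a nuclear receptor that promotes urothelial differentiation, was at 0.978 ± 0.217 and 0.989 ± 0.0749 FPKM, and Trp63, the factor of basal cells, at 0.18 ± 0.044 and 0.232 ± 0.0903 FPKM.

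Further surface and secreted genes had 7 of 7 tested members positive, 4 with an unadjusted p under 0.05, and 0 past the threshold, with a median of 0.62 (6 of 7 positive without KO replicate 2). Over all 11 genes of the list, with no minimum level, the median was 0.22. Foxq1, a forkhead factor placed on this list, was at 2.82 ± 0.126 and 4.86 ± 1.11 FPKM without overlap (limma adjusted p = 0.34). Sprr1a, a cornified envelope protein, was at 1.73 ± 0.824 and 5.45 ± 2.53 FPKM (0.37). Sfn, an epithelial 14-3-3 protein, was at 3.23 ± 0.336 and 4.71 ± 0.961 FPKM (limma adjusted p = 0.66), and S100a6, a calcium-binding protein, at 9.96 ± 1.66 and 16.9 ± 5.47 FPKM (0.71).

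The genes that carry uroplakins to the surface had differences of both signs. Of 7 tested, 4 were positive and 3 negative, 0 had an unadjusted p under 0.05 and 0 passed, with a median of 0.08 that turned to -0.04 without KO replicate 2 and to -0.05 with array weights, and that ran from 0.05 without WT replicate 1 or WT replicate 2 to 0.12 without KO replicate 3. Snx31, a sorting nexin that binds uroplakins, was at 3.79 ± 0.583 and 4.33 ± 0.699 FPKM (limma adjusted p = 0.86). Myo5b, a vesicle motor, was at 34.7 ± 1.24 and 29.8 ± 7.85 FPKM (0.86), Sytl2, a Rab27 effector, at 3.5 ± 0.656 and 2.81 ± 0.56 FPKM (0.86), and Vps33a at 16.9 ± 0.856 and 15 ± 3.04 FPKM (0.86). KO replicate 2 was far below the other KO mice in Myo5b, at 18.1 against 32.9 to 34.2 FPKM, and in Vps33a, at 10.6 against at least 15.8 FPKM. Mal, at 57.5 ± 3.81 and 60.9 ± 3.99 FPKM, is abundant in kidney tubules too, so most of its RNA need not come from urothelium. Rab11a, at 26.7 ± 1.71 and 28.2 ± 5.51 FPKM, and Vamp8, at 77.1 ± 4.7 and 85.4 ± 14.7 FPKM, were far above the uroplakins, as were Myo5b and Vps33a. Whole kidney RNA does not show the level of these genes in the urothelium alone. Whether the trafficking genes differ from the uroplakins was not tested.

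**Figure D3:**
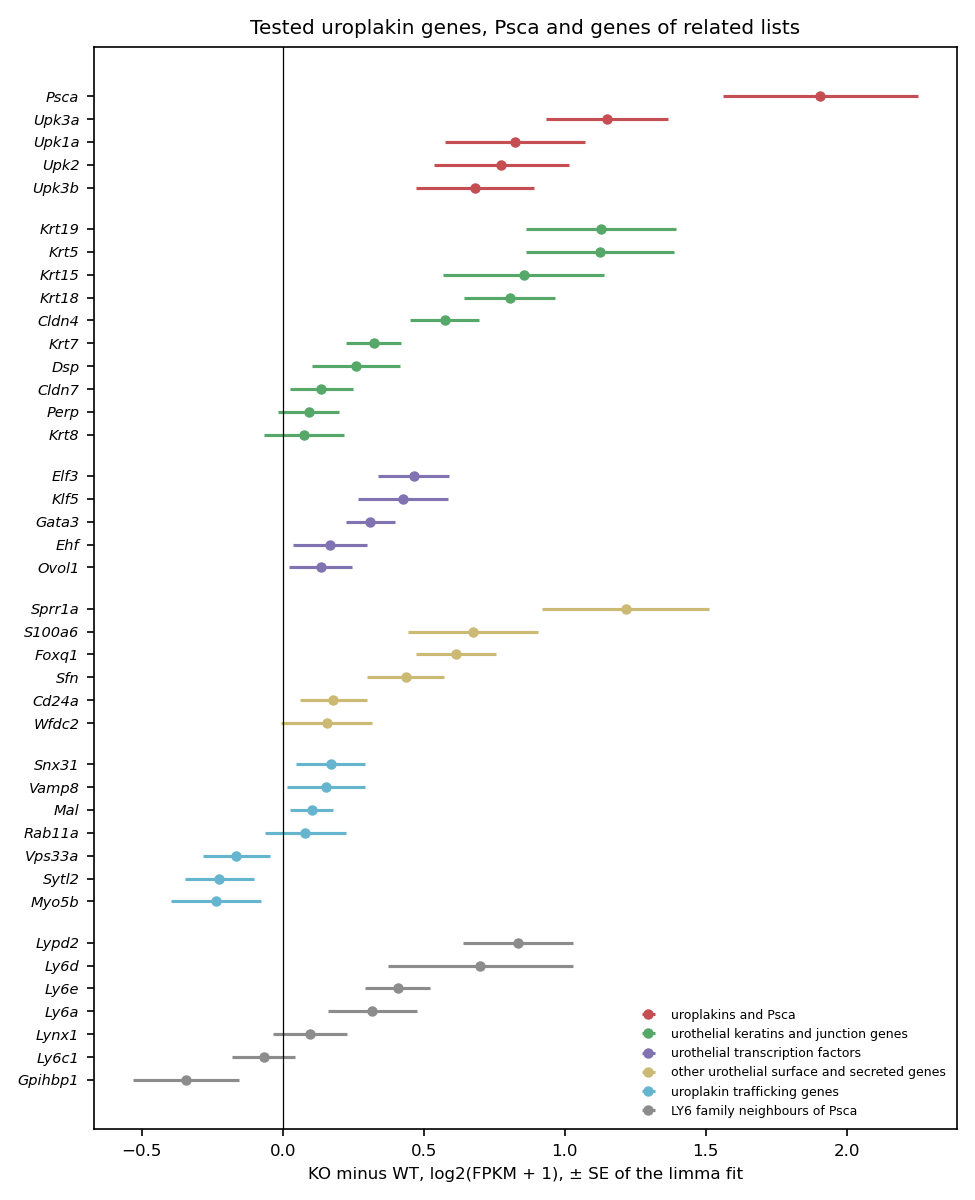
KO minus WT difference on the log2(FPKM + 1) scale (horizontal axis) with the SE of the limma fit, for each tested gene, grouped and coloured by list. All 5 tested uroplakin and Psca genes lie between 0.68 and 1.91, all 10 keratin and junction genes above 0, and the 7 trafficking genes on both sides of 0.

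Psca lies in a cluster of LY6 genes on chromosome 15, and 7 of the 13 others looked at there were tested. Of these 5 were positive, 2 had an unadjusted p under 0.05 and 0 passed, with a median of 0.32. The median was 0.20 with array weights and 0.03 over all 13 with no minimum level. Lypd2, which starts 0.0174 Mb from Psca, was at 1.64 ± 0.559 and 3.67 ± 1.02 FPKM (limma adjusted p = 0.34). Ly6d, a surface marker of stratified epithelia and urothelium that starts 0.0472 Mb away, was at 1.56 ± 0.827 and 3.29 ± 1.75 FPKM (0.82). Slurp1, the nearest of the cluster at 0.00948 Mb, had 0 to 2 reads in each WT mouse and 0 to 5 in each KO mouse. Ly6e, a widely made member, was at 189 ± 19.8 and 248 ± 26.6 FPKM without overlap (limma adjusted p = 0.56) and Ly6a at 336 ± 29.5 and 417 ± 79.2 FPKM (0.84). KO replicate 2 had the highest level of Ly6a, at 518 FPKM.

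The nearest tested genes beside the uroplakin genes and Psca did not pass either. By limma 0 of these 12 flanking genes passed. Next to Upk1a, Zbtb32 was at 1.33 ± 0.182 and 1.4 ± 0.215 FPKM and Cox6b1 at 481 ± 69.8 and 522 ± 97.8 FPKM. Beside Psca, Them6 was at 18.2 ± 1.42 and 18.9 ± 2.9 FPKM, and Arc, an immediate early gene 42.3 kb away, at 0.793 ± 0.118 and 1.59 ± 0.706 FPKM. B4galt4, next to Upk1b, was at 3.4 ± 0.328 and 2.9 ± 0.367 FPKM, with all KO values below all WT values. None of the 6 genes lies on chromosome 11, which carries C1qtnf1, and no other annotated gene overlaps any of them.

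Markers of other cell types were counted in the same way, and their part in the result was not tested. By limma, 3 of 7 inner medulla and osmolyte genes, 3 of 6 smooth muscle genes and 1 of 7 principal cell genes had an unadjusted p under 0.05. It was 0 of 3 for mesothelium, 0 of 8 for proximal tubule, 0 of 5 for the thick ascending limb and 0 of 1 for adipocytes. Inner medulla and osmolyte genes had 5 of 7 positive and 0 past the threshold, with a median of 0.18 (0.06 without KO replicate 1, 0.29 with array weights), and their mean per mouse was -0.13 to 0.10 in WT and 0.13 to 0.47 in KO relative to the WT mean. Slc6a12, the betaine transporter of medullary cells, was at 0.601 ± 0.13 and 1.55 ± 0.246 FPKM (limma adjusted p = 0.11, past the threshold with array weights and without KO replicate 3), Akr1b3, which makes sorbitol, at 18.1 ± 2.35 and 38.7 ± 16.3 FPKM (0.42), and the urea transporter gene Slc14a2 at 7.14 ± 2.96 and 10.8 ± 3.3 FPKM (0.82). Slc6a12 passed the minimum level of the test through its KO values. KO replicates 1 and 4, the highest KO mice for Psca and Upk3b, were also the highest for this list. Slc6a6, the taurine transporter, had the opposite sign, at 109 ± 8.36 and 89.2 ± 19.1 FPKM (limma adjusted p = 0.83), with KO replicate 2 at 60.7 against 97 to 101.8 FPKM in the other KO mice.

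Principal cell markers of the collecting duct had 6 of 7 positive with a median of 0.18 and 0 past the threshold, and mean levels per mouse of -0.15 to 0.13 in WT and 0.03 to 0.36 in KO. The median was 0.07 without WT replicate 1 (4 of 7 positive), 0.11 without WT replicate 2, 0.12 without KO replicate 2 and 0.06 with array weights (5 of 7). Aqp2, the vasopressin-regulated water channel, was at 203 ± 35.1 and 313 ± 61.8 FPKM (limma adjusted p = 0.57), with Fxyd4 at 12.3 ± 1.82 and 16.2 ± 3.8 FPKM (0.82). Aqp4 was at 6.89 ± 1.84 and 7.83 ± 1.26 FPKM and Hsd11b2 at 87.3 ± 14.2 and 96.4 ± 4.06 FPKM. Smooth muscle genes, which the wall of the pelvis shares with arteries, had 4 of 6 positive and 0 past the threshold with a median of 0.18. With 5 tested, it was 0.31 to 0.40 when WT replicate 1, WT replicate 2, KO replicate 3 or KO replicate 4 was left out. Tagln was at 17.6 ± 1.51 and 22 ± 2.18 FPKM (limma adjusted p = 0.63), Myh11 at 3.15 ± 0.701 and 4.72 ± 0.975 FPKM (0.69), Acta2 at 13.6 ± 1.78 and 17.9 ± 3.36 FPKM (0.75) and Des at 6.17 ± 0.481 and 5.77 ± 0.982 FPKM (0.90).

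Mesothelium is another known source of Upk3b and Upk1b. Of its 9 marker genes 3 were tested and 0 passed, with a median of 0.05 (0.01 without WT replicate 1 or WT replicate 4, 0.09 without KO replicate 4 and 0.11 without KO replicate 1), and Bnc1 and Muc16 were at 0 in all 8 mice. The summed level was 24.7 to 28.5 FPKM in WT and 25.4 to 32.8 FPKM in KO, most of it Gpm6a at 19.7 ± 1.42 and 20.3 ± 3.79 FPKM, which is not limited to mesothelium and was highest in KO replicate 2, at 25.9 FPKM. Wt1, a podocyte gene as well, was at 4.39 ± 0.562 and 4.69 ± 0.21 FPKM, and Aldh1a2 at 2.41 ± 0.65 and 2.23 ± 0.539 FPKM. Msln, the defining marker, was at 0.246 ± 0.17 and 0.564 ± 0.29 FPKM, with overlap, and was below the level tested.

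Adipocyte markers, listed because fat lies in the renal sinus, had 1 tested gene of 8, Car3, at 8.96 ± 1.44 and 7.8 ± 1.99 FPKM. Car3 made up most of their summed level of 7.48 to 15.8 FPKM in WT and 6.79 to 14.8 FPKM in KO. With no minimum level, 6 of the 8 were positive with a median of 0.18 and 0 passed. Cfd, the secreted protease adipsin, was at 0.0534, 1.58, 0.0564 and 0.16 FPKM in WT and at 2.24, 0.177, 0.764 and 0.868 FPKM in KO. Plin1, the lipid droplet coat protein, was at 0.0515, 1.04, 0.0815 and 0 FPKM in WT and at 1.43, 0.0851, 0.227 and 0.654 FPKM in KO. These 2 genes, chosen after their values were seen, were highest in WT replicate 2 and KO replicate 1. The same mice were also the highest of their groups for Upk1b, Upk3b and Psca. Ucp1 and Cidec shared these highest mice, but the rest of the list did not. KO replicate 4 was the highest KO mouse for Adipoq, Lep and Car3, and WT replicate 4 the highest WT mouse for Retn, on 1 read. The mean of Adipoq was lower in KO (0.253 FPKM) than in WT (0.36 FPKM), as was that of Car3. The part of the adipocyte genes in the result was not tested.

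Proximal tubule genes had 2 of 8 positive with a median of -0.09 and 0 past the threshold. Without KO replicate 2 it was 4 of 8 with a median of -0.04, without WT replicate 3 also 4 of 8 with -0.05, and without WT replicate 1 the median was -0.14. Cubn was at 50.2 ± 0.963 and 40.8 ± 11.8 FPKM, with KO replicate 2 at 23.2 against 45.5 to 47.8 FPKM in the other KO mice. Slc5a2 was at 320 ± 20.8 and 281 ± 35.4 FPKM, Aqp1 at 347 ± 15 and 311 ± 34 FPKM and Slc22a6 at 373 ± 30.8 and 409 ± 2.77 FPKM. Genes of the thick ascending limb had 1 of 5 positive with a median of -0.11 and 0 past the threshold (-0.05 without KO replicate 4 or with array weights, -0.17 without KO replicate 1). Umod was at 1182 ± 114 and 1009 ± 132 FPKM, Slc12a1 at 156 ± 27.3 and 133 ± 24.3 FPKM, Kcnj1 at 49 ± 2.73 and 44.9 ± 5.28 FPKM and Cldn10 at 61.8 ± 6.92 and 67.1 ± 10.5 FPKM. KO replicate 2 was the lowest of the 8 mice for Cubn, Slc5a2, Aqp1, Umod and Slc12a1, and also for Slc34a1 and Lrp2. In the same lists it was the highest for Kap, at 21750 against 8761 to 12900 FPKM, and for Slc7a13 and Cldn10. Kap made up most of the summed proximal tubule level in every mouse.

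**Figure D4:**
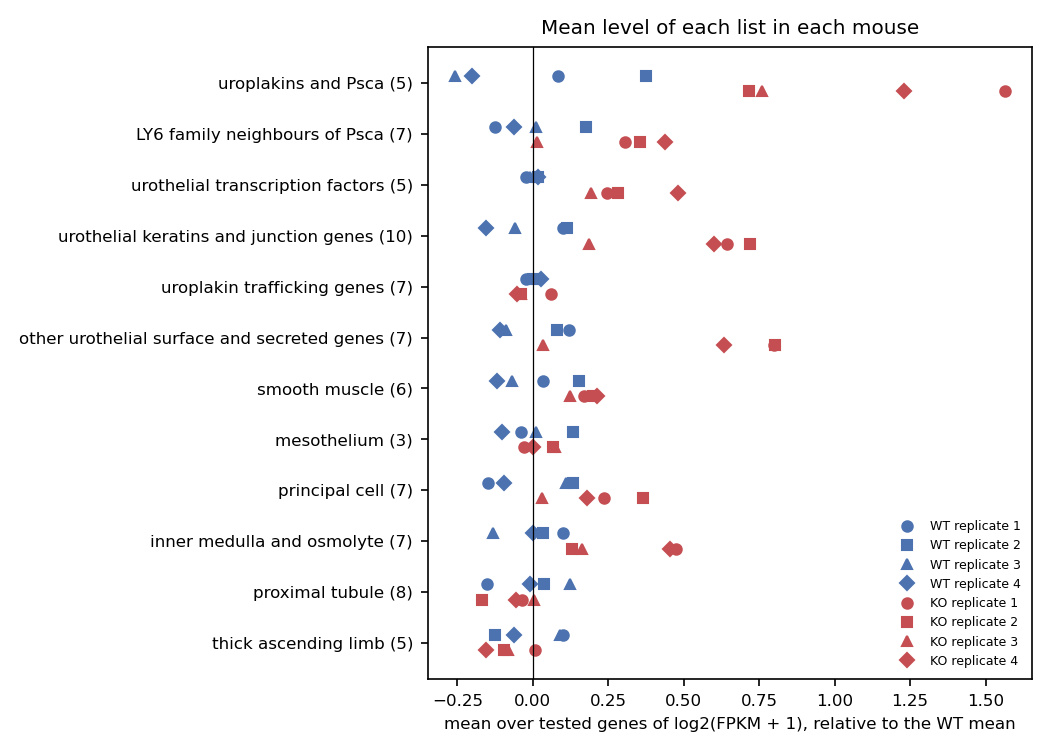
Mean over the tested genes of each list (number in brackets) of log2(FPKM + 1) relative to the WT mean (horizontal axis), in each WT (blue) and KO (red) mouse, with 1 marker shape per replicate number. The KO mice lie between 0.72 and 1.56 for the uroplakins and Psca and between -0.05 and 0.06 for the trafficking genes; adipocyte markers, with 1 tested gene, are left out.

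Likeness of pattern was measured as Pearson's r between a tested gene and the mean standardised level of the 6 genes over the 8 mice, after the mean of each group was taken out. It is a description of 8 points that share library depth and dissection, taken from the top of 12113 genes, and has no p. The highest were Nsmaf (r = 0.95), Slc7a1 (0.95), Usp8 (0.94), Ptges (0.93), Edrf1 (0.92), B3gnt7 (0.92), Fntb (0.91), Sh3gl1 (0.91), RP23-80O10.1 (0.91) and Adamts1 (0.91). KO replicate 2 was the lowest of the 8 mice for Nsmaf, Slc7a1, Usp8, Ptges, Edrf1, Sh3gl1 and Adamts1, but not for B3gnt7, Fntb or RP23-80O10.1. The ranking without this mouse was not worked out. Ptges, prostaglandin E synthase, was at 6.19 ± 0.832 and 7.67 ± 2.34 FPKM, and Slc7a1, a cationic amino acid transporter, at 1.47 ± 0.269 and 1.68 ± 0.541 FPKM. None of the 10 was on the urothelial lists. Among the few urothelial genes whose r was looked up, Krt5 had r = 0.7 with 309 genes above it and Krt19 0.51 with 1593 above it. In this choice Krt15 was at 0.25, Gata3 at 0.07, Elf3 at -0.14, Krt7 at -0.26 and Ovol1 at -0.54. Markers of other cells looked up with them were Slc14a2 at 0.27, Umod at 0.23, Acta2 at 0.19, Aqp2 at 0.15 and Gpm6a at -0.58. The remaining urothelial genes were not looked up, so these values do not describe the lists.

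RefSeq promoter windows (GRCm38.p6, 250 bases before to 50 after the start) were found for Upk1a, Upk3a and Upk3b, 3 of the 6 genes. They were searched on both strands for letters bound by factors on the lists and for core promoter letters. GATAA, the core bound by GATA factors, was in Upk3a and Upk3b, as in 25.4% of all 32851 windows. TATATA was in Upk1a, as in 5.67% of all windows. Shown here, with the matched letters in capitals (in Upk3a the reverse complement), are the 2 GATAA matches, in the 2 genes whose ratio to each other did not overlap between groups, and the TATATA match.
Upk3a, chr15:85016941-85016970, plus strand: ccagagattgcgTTATCtctgacaacactg
Upk3b, chr5:136038378-136038407, plus strand: cctcacttcctgGATAAggatggatggcca
Upk1a, chr7:30612749-30612778, minus strand: ggggtttgggcaTATATAgggagctgctgt

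The GATAA letters began 188 bases before the start in Upk3a and 106 bases before it in Upk3b, and the TATATA letters 32 bases before the RefSeq start in Upk1a. That RefSeq start lies inside the span of Upk1a given above, which reaches further upstream in GENCODE, so these letters lie within the GENCODE gene. In Upk3b the ETS letters CAGGAAG (13.3% of all windows) lay beside GATAA on the other strand. CCNCNCCC, read by Krüppel-like factors, was in Upk1a and Upk3a (49.5% of all windows), where in Upk3a it overlapped 1 of 2 copies of the GC box GGGCGG (35.7%). The grainyhead letters AACNNGTT (4.2%), the forkhead letters TGTTTAC (3.65%) and TATAAA (13.6%) were in none of the 3. Upk1a had 0 CpG sites in its 300 bases, Upk3b 2 and Upk3a 9, beside a median of 7. A match describes letters only and does not show that a factor binds there.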

How the data were processed

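RNA of 8 whole kidneys was sequenced (4 WT, 4 KO). The deposited table holds 8 columns of values, 1 for each mouse, and its header does not name their unit. The authors' values were treated as FPKM, since low values are whole multiples of a step that shrinks with gene length. Tools named in the submitters' processing notes are STAR 2.5, HTSeq 0.6.1, CASAVA and DESeq2, and the build named is mm10. What each did, which gene models it used and how strand was treated is not given in the sources used here. Gene positions are from GENCODE M21 (34490 of 35275 genes matched).

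Reads were recovered from the FPKM steps: all 22945 genes above 0 gave whole reads (within 0.002), 5865 at the annotated exon length and 17080 at the smallest fitted length that did. As a control, 500 genes whole at the annotated length were checked again at that length, and 0 of 500 stayed whole once the totals were moved by at most 0.1%. The search for a fitted length was not put to this control. It gave the reads of the uroplakin genes, while those of Psca came from the annotated length. Of the 50-base stretches of transcripts of the 6 genes, 0 occurred in another gene's transcripts.

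The unit being FPKM, limma 3.58.1 (R 4.3.3, statmod 1.5.0; trend and robust options) was run on log2(FPKM / scaling factor + 1), which understates changes of low genes. Scaling used the trimmed mean of log ratios of the recovered reads (0.3 of ratios and 0.05 of levels trimmed), with factors between 0.936 and 1.05. Genes with a mean of at least 1 FPKM were tested, with Benjamini-Hochberg adjustment at 0.05. Levels are mean ± SD of FPKM as deposited. Replicate numbers only name mice.

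The genes, the 12 other lists and the rules were chosen with earlier results of these data known. Named were the 6 genes, C1qtnf1, up to 4 genes per list with the lowest p, and the 10 genes most alike in pattern. Other named list genes were chosen after their values were seen. The 15 alternatives covered scaling, pseudocount, filter, limma-voom, array weights and leaving out each mouse.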

Additional observations from a re-analysis of the deposited data

How the results depend on the processing

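The log2 differences of the 6 genes kept a positive sign in all fits that gave them. Their median, 0.80, was 0.58 to 0.95 when a mouse was left out, and 1.32 with a pseudocount of 0.1 in place of 1, which by construction shrinks low genes less. Limma-voom gave no median of 6, as Upk1b was below the filter. The median of the urothelial lists, 0.26, was 0.17 to 0.31 in the alternatives. The 5 genes called over the whole table became 59 with array weights (30 higher, 29 lower), and 3 to 21 when a mouse was left out: 21 without KO replicate 2 (9 higher, 12 lower), 21 without KO replicate 3 (17 higher, 4 lower), 9 without KO replicate 4, and 3 without WT replicate 1 or without WT replicate 3. The cause was not tested. The 3 fits that called 1 of the 6 genes were leaving out WT replicate 2, leaving out KO replicate 3, and array weights. WT levels of Upk2 rest on 5 to 11 reads per mouse, which limits its ratios. No paired analysis was possible because no label ties a KO mouse to a WT mouse.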
